A study of Mus musculus with 44 samples.

Results

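The genes described here are 48 components of the synaptic vesicle and of the machinery that docks, primes, fuses and recycles it. They were taken by name from a list of 14 synaptotagmins, 2 Doc2 proteins, 8 vesicle membrane proteins, 3 synapsins, the phosphatase synaptojanin 1, 7 SNARE proteins or complexins, 8 Rab3 and active zone proteins and 5 priming factors. All 48 were among the 22682 gene symbols shared by the 44 count files, and all 48 passed the filter on low counts that left 16532 genes for testing. Their levels were compared between cholinergic neurons of the mouse medial habenula (MHb) and 3 genetically defined neuron groups of the interpeduncular nucleus (IPN), the midbrain structure that MHb axons innervate.

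A synaptic vesicle fuses when the SNARE proteins synaptobrevin on the vesicle and syntaxin and SNAP25 on the plasma membrane zip together. Munc13 and CAPS proteins prime the vesicle, Rab3 and RIM tether it at the active zone, complexin holds the assembled complex, and synaptotagmins sense calcium and trigger fusion. Most of these proteins belong to small families whose members differ between neurons. MHb cholinergic neurons are known to release both acetylcholine and glutamate onto the IPN, whereas many IPN neurons release GABA.

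Each library came from ribosomes tagged with EGFP-L10a and pulled down from a dissected region (translating ribosome affinity purification, IP), or from the RNA of the whole homogenate (input). All mice were adults of the B6J.Cg background, and 1 library is a pool of 3 to 9 animals. The MHb samples were from the ChAT-TRAP (DW167) line, a single transgenic line in which a ChAT BAC drives the tag. The IPN samples were from Chrna5-Cre (SN83), Amigo1-Cre (NP231) and Epyc-Cre (KR363) mice, each crossed to the Cre-dependent Eef1a1-LSL.EGFPL10 allele, so a tagged cell is any cell of the dissection with a history of Cre expression. The IPs without nicotine numbered 9 for ChAT (4 baseline, 2 on 0.2% saccharin water for 6 weeks, 2 on that water with a saline injection 3 h before collection, 1 with a saline pump for 14 days), 3 for Chrna5 (baseline), 3 for Amigo1 (2 baseline, 1 saline pump for 10 days) and 5 for Epyc (4 baseline, 1 saline pump for 10 days). The library names of the 4 baseline ChAT IPs read WT and saline, while their other labels say baseline, as they are called here. The name of the ChAT saline-pump IP also reads wt. Chrna5 baseline 4, IP and input, came from males. Each line also had 4 inputs, all without nicotine. For ChAT these were 2 of saccharin water with saline injection and 2 baseline pools of 9 males each, 1 from the left side of the MHb and 1 from the right, which may be the sides of the same mice and not separate samples. For Chrna5 they were baseline, and for Amigo1 and Epyc 3 baseline and 1 saline pump. Nicotine IPs were 3 of ChAT and 3 of Amigo1, from mice on 500 mg/L nicotine tartrate with 0.2% saccharin in the water for 6 weeks (1 of the ChAT pools also had the saline injection), and 2 of Epyc, from mice with nicotine pumps (24 mg/kg/day for 10 and 11 days). The labels do not say that pools of a line came from separate litters or days, so p-values measure the spread between these libraries, which may be technical. In RNA pooled over cells fewer expressing cells and less RNA per cell cannot be told apart.

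Libraries held 7908401 to 70481509 counts in genes, so that 3 counts, the floor below which a listed 0 cannot be told from a low level, were 0.0495 to 0.436 CPM (counts scaled to library size) per library, counting error only. Levels are CPM scaled with edgeR, and differences are log2 values ± SE from 1 edgeR fit of all 44 libraries, called at an adjusted p below 0.05 over all 16532 genes. The files were counted on 3 gene lists, and only the ChAT IPs occur on several (3 controls on the list of the Chrna5 IPs and all inputs, 2 controls and the 3 nicotine IPs on the list of the Amigo1 and Epyc IPs, the 4 baseline IPs on a list of their own). With gene list as a term, the fitted difference from Chrna5 rests on 3 ChAT IPs, all saccharin-treated, and those from Amigo1 and Epyc on 2, saccharin-injected 1 and saline-pump 1. The 4 baseline ChAT IPs do not enter these differences, but they are included in the ranges of levels. The labels give a starting amount of RNA that is orders of magnitude larger for MHb than for IPN libraries, a gap so wide that a unit may be mistyped, so region and amplification cannot be told apart. The 3 Amigo1 nicotine IPs stood apart, with 9195 to 9838 symbols of at least 10 counts against 11748 to 15545 in the other 41 libraries. Counts of members called in each comparison are also given without them where they differ.

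Markers of acetylcholine and GABA neurons set the ChAT line apart from the IPN lines. The genes Chrna5, Amigo1 and Epyc were not among the markers examined, so the 3 IPN labels were not checked against one another. Chat, the enzyme that makes acetylcholine, was at 79.5 to 183 CPM in the 9 ChAT IPs and at 0 in the 3 Chrna5 IPs, and reached 0.0480 CPM in Amigo1 and 0.112 CPM in Epyc IPs. Slc32a1, the vesicular GABA transporter, was at 235 to 449 CPM in the IPN IPs and at most 2.21 CPM in the ChAT IPs. A list of 10 MHb markers summed to 7950.4 to 10459 CPM in ChAT, 780.4 to 1147 CPM in Chrna5, 224 to 322 CPM in Amigo1 and 279 to 328 CPM in Epyc IPs. In the inputs that list summed to 808 to 954 CPM in ChAT and 440 to 553 CPM in Chrna5. It summed to 234 to 303 CPM in Amigo1 and 218 to 355 CPM in Epyc inputs.

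Against Chrna5, 11 of the 48 members were higher in the ChAT IPs and 16 were lower, where 6.97% of all genes tested were higher and 8.81% lower. Against Amigo1, 10 were higher and 14 lower (5.63% and 8.72% of all genes). Against Epyc, 9 were higher and 15 lower (7.03% and 8.15% of all genes). The members' share called was thus above that of all genes in both directions in each comparison. Their median log2 difference was -0.51, -0.37 and -0.28 in this order, beside 0.00 over all genes each time. A list of 14 pan-neuronal markers outside the release genes had medians of -0.41, -0.32 and -0.84. Of these markers, 5, 5 and 7 were lower in ChAT and 1, 2 and 1 higher. The differences from Amigo1 and Epyc share their 2 ChAT IPs, and the difference from Chrna5 rests on 3 other ChAT IPs. Markers of other cells differed as well. Dopamine and serotonin markers were lower for 6 of 7 against Chrna5 (median log2 difference -3.92), 6 of 7 against Amigo1 (median log2 difference -7.04) and 6 of 7 against Epyc (median log2 difference -6.59). Astrocyte markers were lower for 1 of 8 against Chrna5 (median log2 difference -0.24), 5 of 8 against Amigo1 (median log2 difference -3.12) and 3 of 8 against Epyc (median log2 difference -2.30), and oligodendrocyte markers for 0 of 8 against Chrna5 (median log2 difference -0.20), 5 of 8 against Amigo1 (median log2 difference -2.74) and 4 of 8 against Epyc (median log2 difference -2.34). Thalamic and hippocampal markers were higher for 3 of 8 against Chrna5 (median 0.98), 4 of 8 against Amigo1 (median 1.40) and 4 of 8 against Epyc (median 0.74). The part of these markers in the members' differences was not tested. Without the Amigo1 nicotine IPs the counts were 11 higher and 21 lower, 11 and 18, and 12 and 19. Of all genes 29.8%, 29.8% and 29.5% were then called in either direction. The members called the same way against all 3 IPN lines were 8 higher ones (Syt4, Syt6, Syt9, Syt13, Syt15, Synpr, Sv2b and Cadps2) and 11 lower ones (Syt1, Syt12, Doc2b, Syngr1, Sv2c, Syn2, Snap25, Cplx2, Rab3b, Rab3c and Cadps), where 3.35% of all genes were higher and 4.79% lower against all 3. A further 14 were called against 1 or 2 lines, 15 against none, and no member was called in opposite directions. Leaving out ChAT saline-pump 1, 1 of the 2 ChAT IPs behind the Amigo1 and Epyc differences, brought the count against Amigo1 from 24 to 14 and the members lower against each line from 11 to 5.

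**Figure D1:**
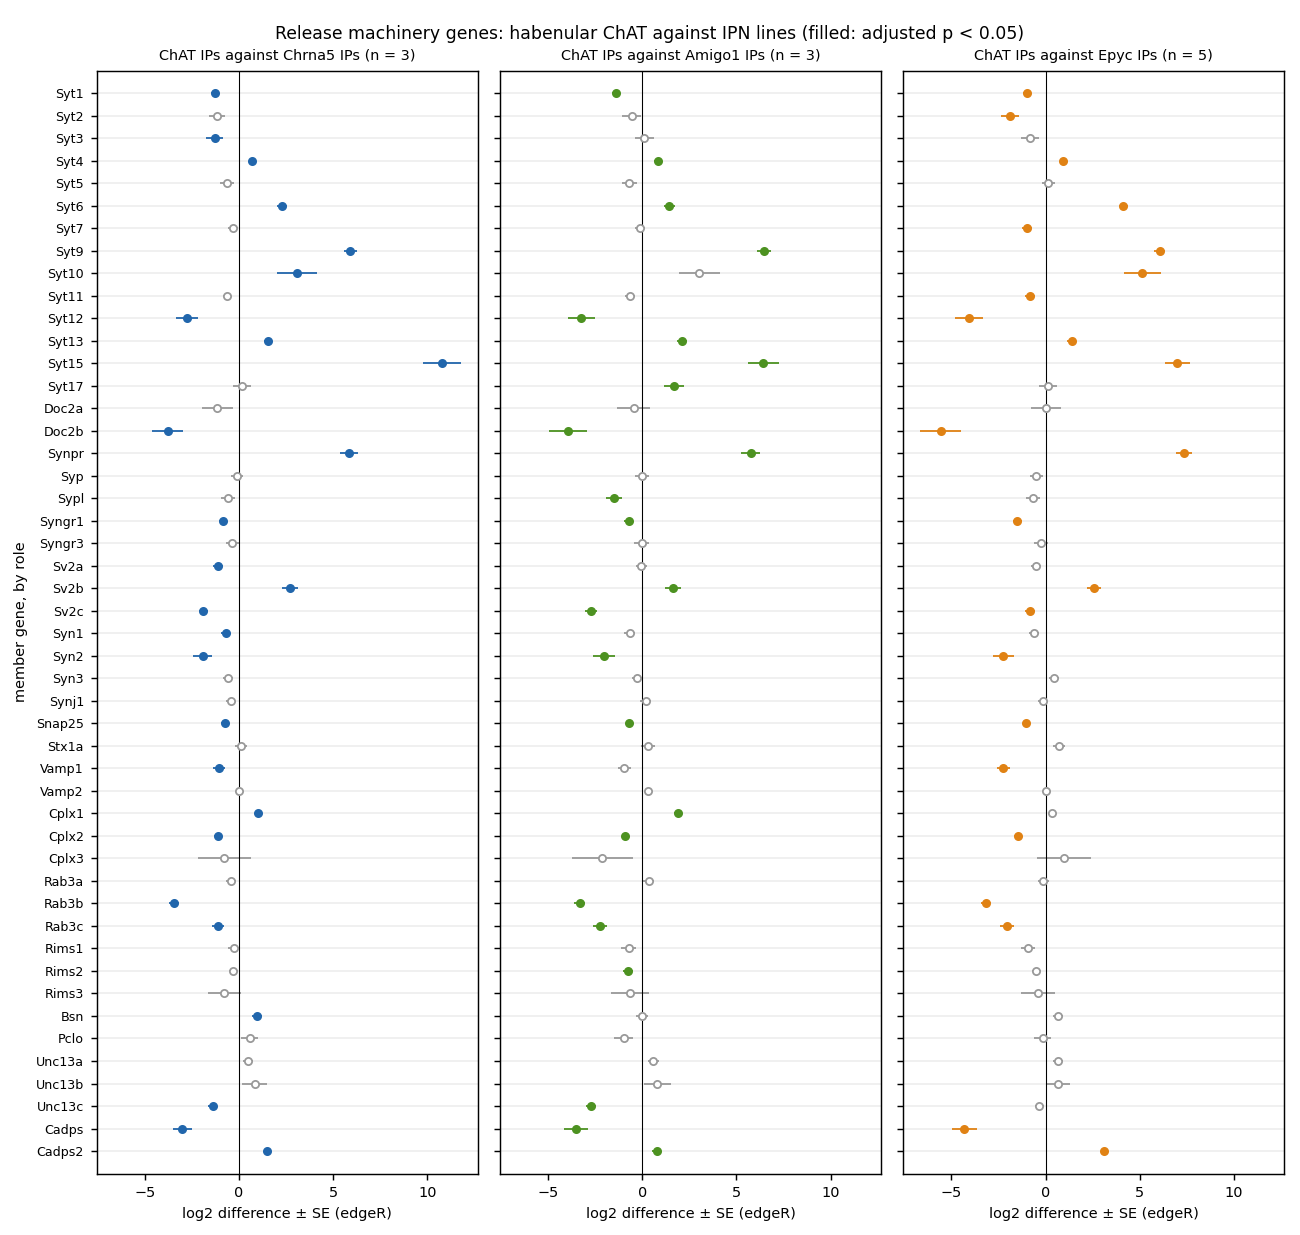
Each point is the log2 difference of 1 member gene, ChAT IPs minus the IPs of 1 IPN line (x axis), with its SE from edgeR as a bar, and genes are ordered by role from calcium sensors at the top to priming factors at the bottom (y axis). Filled points passed an adjusted p below 0.05. Syt9, Syt15 and Synpr lie furthest right in all 3 panels, and Doc2b, Rab3b and Cadps lie left of -2 in each.

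Sequences upstream of 4 of these genes are shown because they are the 3 with the largest differences upward and the Rab3 gene with the largest difference downward against all 3 lines. They are the 250 bases before the RefSeq start (GRCm38.p6), 5′ to 3′, all on the plus strand. GENCODE M21 starts Syt9, Syt15 and Rab3b further upstream, inside or before these windows. Syt9 is chr7:107370540-107370789, Syt15 is chr14:34219796-34220045, Synpr is chr14:13284530-13284779 and Rab3b is chr4:108878820-108879069. Capitals mark matches, on either strand, to the GC box GGGCGG, the TATA box TATAAA, the cyclic AMP response core TGACG, the homeobox core TAATTA or the NRF1 motif GCGCATGC. Adjacent matches run together, and none of these motifs holds another.
Syt9: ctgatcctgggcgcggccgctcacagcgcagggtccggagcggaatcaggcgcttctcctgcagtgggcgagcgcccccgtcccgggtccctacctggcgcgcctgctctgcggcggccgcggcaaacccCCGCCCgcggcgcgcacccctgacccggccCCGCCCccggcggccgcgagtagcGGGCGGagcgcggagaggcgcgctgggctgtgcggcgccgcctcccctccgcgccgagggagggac
Syt15: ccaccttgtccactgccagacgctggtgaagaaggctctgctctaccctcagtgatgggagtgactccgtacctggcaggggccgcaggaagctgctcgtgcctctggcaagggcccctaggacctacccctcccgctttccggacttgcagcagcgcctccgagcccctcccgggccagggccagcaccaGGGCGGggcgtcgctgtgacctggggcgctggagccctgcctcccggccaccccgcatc
Synpr: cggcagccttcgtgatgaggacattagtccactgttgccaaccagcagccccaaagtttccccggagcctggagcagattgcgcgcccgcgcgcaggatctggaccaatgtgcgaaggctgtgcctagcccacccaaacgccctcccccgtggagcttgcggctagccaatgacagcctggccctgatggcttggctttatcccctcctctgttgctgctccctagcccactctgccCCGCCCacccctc
Rab3b: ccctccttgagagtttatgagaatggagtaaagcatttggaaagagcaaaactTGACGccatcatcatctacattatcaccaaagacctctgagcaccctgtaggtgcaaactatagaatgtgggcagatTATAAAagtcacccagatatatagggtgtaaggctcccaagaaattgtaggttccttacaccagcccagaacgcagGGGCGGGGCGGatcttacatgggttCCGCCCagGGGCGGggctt
The 3 higher genes hold the GC box and none of the other motifs, and Rab3b holds a GC box, a TATA box and TGACG. G and C make 80.4% of the bases for Syt9, 70.0% for Syt15, 64.0% for Synpr and 48.8% for Rab3b. RefSeq promoters were matched for 35 of the 48 members. The GC box was found for 4 of the 5 matched genes that were higher by at least 1 on the log2 scale against all 3 lines, for 4 of the 5 matched genes that were lower by that much, and in 33.0% of 27025 promoters. TATAAA was found for 1 of 5 and 1 of 5, and in 12.98% of all. TGACG was found for 0 of 5 and 1 of 5 (17.8% of all), TAATTA for 1 of 5 and 0 of 5 (4.91%) and GCGCATGC for 0 of 5 and 0 of 5 (2.31%).

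Among the calcium sensors the ChAT neurons and the IPN lines differed in which synaptotagmin led. Syt9 (chr7:107370728-107548656, plus strand, GRCm38), a fast sensor for exocytosis, ranged from 1461 to 2133 CPM (median 1701) in the 9 ChAT IPs. It was at 32.1, 30.3 and 28.0 CPM in the Chrna5 IPs, 18.8, 19.4 and 32.2 CPM in the Amigo1 IPs and 32.0, 36.5, 29.5, 24.1 and 29.7 CPM in the Epyc IPs. No IPN IP came near the lowest ChAT IP. The log2 difference was 5.92 ± 0.35 against Chrna5, 6.45 ± 0.37 against Amigo1 and 6.07 ± 0.29 against Epyc, with adjusted p of at most 2.99e-15. Per kb of exon length, the only scale on which genes are compared with one another here, Syt9 was the highest of the 14 synaptotagmins in ChAT IPs with 471 ± 64.9 CPM per kb (SD, n = 9), 33.6% ± 2.75 of the family's sum. Its level per kb was 7.77 ± 0.527 (n = 3) in Chrna5, 6.05 ± 1.95 (n = 3) in Amigo1 and 7.83 ± 1.16 (n = 5) in Epyc.

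Syt1 (chr10:108497650-109010982, minus strand), the principal sensor for synchronous release in many forebrain neurons, led the family in the 3 IPN lines instead, with 51.8% ± 1.13, 55.4% ± 0.259 and 48.4% ± 2.38 of the synaptotagmin sum per kb in Chrna5, Amigo1 and Epyc, against 13.5% ± 2.10 in ChAT. It ranged from 744 to 1173 CPM (median 893) in the ChAT IPs. It was at 1995, 2296 and 2494 CPM in the Chrna5 IPs, 2321, 2594 and 2154 CPM in the Amigo1 IPs and 1741, 1849, 1864, 1872 and 1610.2 CPM in the Epyc IPs. All ChAT IPs lay below all IPN IPs, and the log2 difference was -1.30 ± 0.18 against Chrna5, -1.41 ± 0.21 against Amigo1 and -1.01 ± 0.19 against Epyc (adjusted p at most 0.000156). Within ChAT it came after Syt9 and Syt6 per kb with 188 ± 26.4 CPM per kb, overlapping Syt6 with 205 ± 25.5 CPM per kb (SD, n = 9).

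Syt15 (chr14:34219595-34230420, plus strand), a synaptotagmin that lacks calcium-binding residues, ranged from 220.2 to 329 CPM (median 272) in the ChAT IPs and was at 0.253, 0.324 and 0 CPM in the Chrna5 IPs, 2.28, 4.03 and 3.14 CPM in the Amigo1 IPs and 1.91, 0.634, 3.93, 0.215 and 3.96 CPM in the Epyc IPs. The Chrna5 values stand for 4, 7 and 0 reads, so the fitted log2 difference of 10.77 ± 1.002 depends on the prior count. Against Amigo1 it was 6.43 ± 0.82 and against Epyc 7.00 ± 0.67, with adjusted p of 1.67e-07 and 1.89e-10. The Epyc IPs spread from 3 to 78 reads. Whole habenula held it as well, with 15.4 to 20.2 CPM in the 4 habenula inputs and 1.15 to 2.86 CPM (median 1.87) in the 12 IPN inputs.

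Syt6 (chr3:103575231-103645569, plus strand), which is known from the acrosome reaction of sperm as well as from brain, ranged from 993 to 1514 CPM (median 1156) in the ChAT IPs. It was at 237, 236 and 221 CPM in the Chrna5 IPs, 549.9, 533 and 405 CPM in the Amigo1 IPs and 66.5, 85.5, 64.3, 72.8 and 97.6 CPM in the Epyc IPs. The 4 lines did not overlap, in the order ChAT, Amigo1, Chrna5, Epyc. In ChAT it was higher by 2.29 ± 0.26 against Chrna5, 1.44 ± 0.27 against Amigo1 and 4.12 ± 0.24 against Epyc on the log2 scale (adjusted p at most 0.000126). Syt13 (chr2:92915098-92956058, plus strand), another member without calcium binding, ranged from 428 to 623 CPM (median 556) in ChAT and was at 175, 197 and 218 CPM in the Chrna5 IPs, 134, 146 and 136 CPM in the Amigo1 IPs and 239.6, 270.3, 232, 227 and 174 CPM in the Epyc IPs. All ChAT IPs lay above all IPN IPs, by 1.53 ± 0.23 against Chrna5, 2.10 ± 0.25 against Amigo1 and 1.38 ± 0.22 against Epyc (adjusted p at most 8.02e-06). Syt4, a synaptotagmin found on dense core vesicles, was higher by less, by 0.70 ± 0.18 against Chrna5, 0.81 ± 0.20 against Amigo1 and 0.93 ± 0.18 against Epyc (adjusted p at most 0.0049). Syt10, a sensor for IGF1 secretion in olfactory bulb neurons, was at 33.2 to 42.5 CPM in ChAT and at most 6.45 CPM in any IPN IP, with calls against Chrna5 (3.07 ± 1.05) and Epyc (5.15 ± 0.98) but not Amigo1 (3.03 ± 1.10, adjusted p = 0.06).

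Syt12 and Doc2b were lower in ChAT. Syt12 (chr19:4445908-4477447, minus strand), a vesicle protein linked to spontaneous release, ranged from 0.241 to 1.52 CPM (median 0.612) in ChAT and was at 4.24, 5.32 and 6.14 CPM in the Chrna5 IPs, 4.25, 5.14 and 0.998 CPM in the Amigo1 IPs and 6.51, 8.11, 6.15, 5.37 and 4.94 CPM in the Epyc IPs. The 1 low Amigo1 IP, saline-pump 1, lay inside the ChAT range. The log2 difference was -2.77 ± 0.60 against Chrna5, -3.23 ± 0.73 against Amigo1 and -4.06 ± 0.74 against Epyc (adjusted p at most 0.00151), and the call against Amigo1 was lost without ChAT saline-pump 1. Doc2b (chr11:75768966-75796049, minus strand), a high-affinity sensor for spontaneous and asynchronous release, ranged from 2.25 to 17.6 CPM (median 4.397) in ChAT, where baseline 1 was the highest by far. It was at 79.7, 62.1 and 118 CPM in the Chrna5 IPs, 40.7, 36.7 and 29.5 CPM in the Amigo1 IPs and 97.6, 99.0, 107, 118 and 121 CPM in the Epyc IPs, all above every ChAT IP. The log2 difference was -3.80 ± 0.84 against Chrna5, -3.96 ± 1.02 against Amigo1 and -5.57 ± 1.09 against Epyc (adjusted p at most 0.00541), and without ChAT saline-pump 1 or saccharin-injected 1 the call against Amigo1 was lost. Of the other synaptotagmin and Doc2 genes, Syt2, the fast sensor of hindbrain synapses, was lower against Epyc (-1.88 ± 0.49). Syt3 was lower against Chrna5 (-1.30 ± 0.46), and Syt7, a sensor for asynchronous release and facilitation, was lower against Epyc (-1.001 ± 0.27), as was Syt11 (-0.83 ± 0.24). Syt17 was higher against Amigo1 (1.70 ± 0.53). Syt5 and Doc2a passed no test between ChAT and an IPN line.

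**Figure D2:**
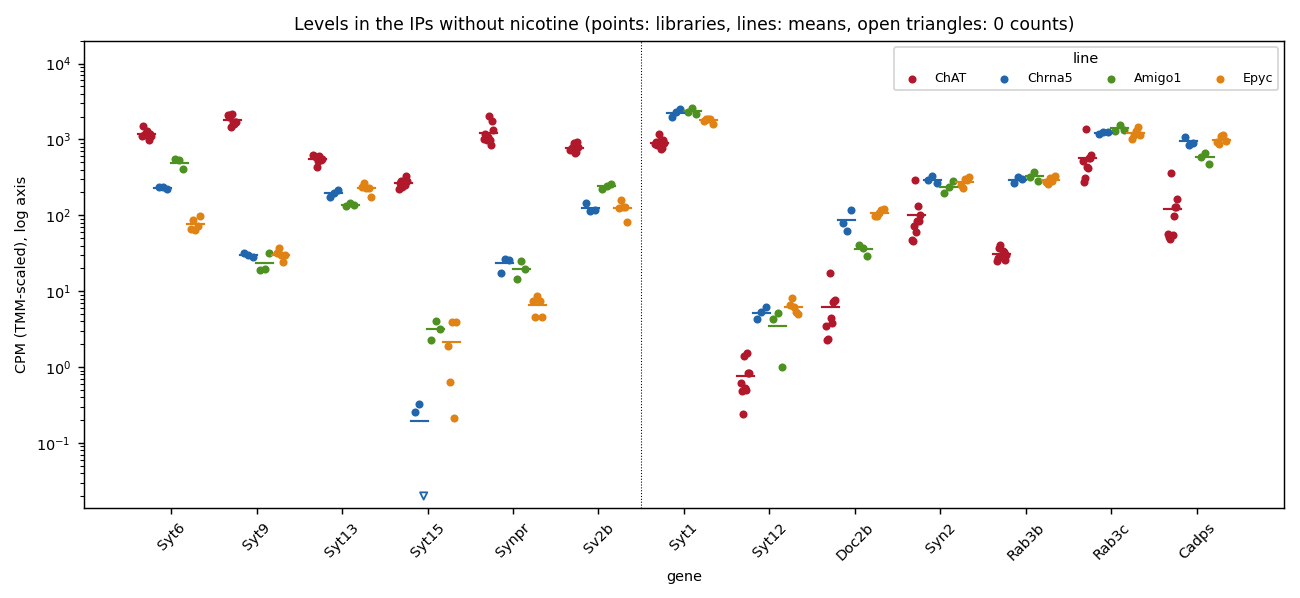
CPM of each IP library without nicotine on a log axis (y axis) for the 13 members that differed in the same direction by at least 1 on the log2 scale against all 3 IPN lines (x axis), with a point per library, a line at each group mean and an open triangle for a library at 0 counts. Genes left of the dotted line were higher in ChAT (n = 9) than in Chrna5 (n = 3), Amigo1 (n = 3) and Epyc (n = 5), and genes right of it were lower. Doc2b, Syn2, Rab3c and Cadps each have 1 ChAT library, baseline 1, well above the other 8.

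Among the vesicle membrane proteins the synaptophysin family and the SV2 family differed in make-up. Synpr (chr14:13284780-13616340, plus strand) encodes synaptoporin, a relative of synaptophysin with a restricted distribution in brain. It ranged from 833 to 2038 CPM (median 1070.0) in the ChAT IPs and was at 17.4, 26.4 and 26.1 CPM in the Chrna5 IPs, 14.6, 25.3 and 19.5 CPM in the Amigo1 IPs and 7.46, 4.52, 8.77, 7.45 and 4.51 CPM in the Epyc IPs. The lowest ChAT IP was far above every IPN IP, and the log2 difference was 5.86 ± 0.48 against Chrna5, 5.76 ± 0.50 against Amigo1 and 7.36 ± 0.43 against Epyc (adjusted p at most 2.43e-11). Syp, synaptophysin itself, ranged from 823 to 1450.2 CPM (median 1073) in ChAT and was at 1078, 1260.5 and 1104 CPM in the Chrna5 IPs, 814, 1310.0 and 1177 CPM in the Amigo1 IPs and 1623, 1447, 1796, 1570.0 and 1301 CPM in the Epyc IPs. These ranges overlapped for Chrna5, Amigo1 and Epyc, and the log2 differences were -0.10 ± 0.33 against Chrna5, -0.01 ± 0.37 against Amigo1 and -0.50 ± 0.34 against Epyc, with no call. Per kb, synaptoporin made 42.2% ± 8.67 of the summed Syp, Synpr and Sypl in ChAT and 1.31% ± 0.244, 1.16% ± 0.102 and 0.274% ± 0.0528 in Chrna5, Amigo1 and Epyc.

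SV2 proteins are vesicle glycoproteins that bind synaptotagmin and botulinum toxin. Sv2b (chr7:75114894-75309262, minus strand) ranged from 657 to 935 CPM (median 773) in ChAT and was at 144, 114 and 119 CPM in the Chrna5 IPs, 226, 246 and 262 CPM in the Amigo1 IPs and 126, 161, 129.7, 130.005 and 82.2 CPM in the Epyc IPs. No IPN IP reached the ChAT range, and the log2 difference was 2.71 ± 0.41 against Chrna5, 1.63 ± 0.43 against Amigo1 and 2.58 ± 0.37 against Epyc (adjusted p at most 0.00668), with the call against Amigo1 lost without ChAT saline-pump 1. Sv2c went the other way, with log2 differences of -1.90 ± 0.25 against Chrna5, -2.74 ± 0.31 against Amigo1 and -0.82 ± 0.26 against Epyc (adjusted p at most 0.0289). Its level differed between the gene lists, with 297 to 336 CPM in the 3 ChAT IPs on the list of the Chrna5 IPs (which were at 1228, 1109 and 1152 CPM), and 72.1 to 90.6 CPM in the 5 on the list of the Amigo1 IPs (510.4, 724 and 500.3 CPM) and Epyc IPs (144, 136, 184, 174 and 127 CPM). On each list the ChAT IPs lay below the IPN IPs. Gm20075 and Gm17190 overlap Sv2c. Sv2b made 54.5% ± 1.91 of the SV2 sum per kb in ChAT, where Sv2a led in Chrna5 (53.9% ± 1.72), Amigo1 (52.1% ± 1.44) and Epyc (80.5% ± 2.45). Sv2a was lower in ChAT against Chrna5 (-1.12 ± 0.26) and passed no test against Amigo1 (-0.06 ± 0.28) or Epyc (-0.53 ± 0.27). Syngr1, a synaptogyrin, was lower, with log2 differences of -0.86 ± 0.21 against Chrna5, -0.73 ± 0.24 against Amigo1 and -1.498 ± 0.23 against Epyc (adjusted p at most 0.0321), but it overlaps Rpl3 on the other strand, and without strand their reads cannot be told apart. Syngr3 passed no test, and Sypl was lower against Amigo1 (-1.52 ± 0.43).

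Synapsins tether vesicles in the reserve pool. Syn2 (chr6:115134902-115282006, plus strand) ranged from 46.1 to 288 CPM (median 83.5) in ChAT and was at 290.2, 328 and 265 CPM in the Chrna5 IPs, 195, 235 and 285 CPM in the Amigo1 IPs and 249, 229, 298, 296 and 318 CPM in the Epyc IPs. The ChAT IP baseline 1 lay among the IPN IPs and the other 8 lay below them. Log2 differences for Syn2 were -1.93 ± 0.50 against Chrna5, -2.01 ± 0.59 against Amigo1 and -2.24 ± 0.57 against Epyc (adjusted p at most 0.0151). Each of these calls was lost when 1 ChAT IP was left out: saccharin-injected 2 against Chrna5, saccharin-injected 1 against Epyc, and either of saccharin-injected 1 and saline-pump 1 against Amigo1. Timp4 lies on the other strand of Syn2. Syn1 was lower against Chrna5 (-0.72 ± 0.25) and passed no test against Amigo1 (-0.68 ± 0.29) or Epyc (-0.61 ± 0.27). Synj1, the phosphatase that uncoats endocytosed vesicles and 1 of the 3 most abundant members with no call, ranged from 678 to 1568 CPM (median 987) in ChAT and was at 1118, 1155 and 1318 CPM in the Chrna5 IPs, 849, 992 and 758 CPM in the Amigo1 IPs and 956, 971, 1114, 1187 and 1269.6 CPM in the Epyc IPs. Its log2 differences were -0.45 ± 0.25 against Chrna5, 0.18 ± 0.28 against Amigo1 and -0.16 ± 0.26 against Epyc.

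Of the fusion machinery, Vamp2 and Snap25 were at high levels in all 4 lines. Vamp2, the main vesicle SNARE, ranged from 2137 to 2969.9 CPM (median 2485) in ChAT and was at 2431, 2698 and 2625 CPM in the Chrna5 IPs, 2044, 2347 and 1942 CPM in the Amigo1 IPs and 2857, 2527, 2419.6, 2359 and 2935 CPM in the Epyc IPs. The ranges overlapped, and the log2 differences were 0.00 ± 0.15 against Chrna5, 0.32 ± 0.16 against Amigo1 and 0.01 ± 0.15 against Epyc, with no call. Snap25, the plasma membrane SNARE, was lower in ChAT, with log2 differences of -0.76 ± 0.17 against Chrna5, -0.70 ± 0.20 against Amigo1 and -1.03 ± 0.19 against Epyc (adjusted p at most 0.0118). Vamp1 was lower against Chrna5 (-1.07 ± 0.31) and Epyc (-2.24 ± 0.35), not called against Amigo1 (-0.96 ± 0.35). Stx1a was at 12.1 to 21.7 CPM in ChAT and passed no test. The complexins, which clamp and assist SNARE complexes, moved apart. Cplx1 was higher in ChAT against Chrna5 (1.001 ± 0.16) and Amigo1 (1.88 ± 0.18) and not called against Epyc (0.32 ± 0.16). Cplx2 was lower, with log2 differences of -1.15 ± 0.17 against Chrna5, -0.90 ± 0.19 against Amigo1 and -1.47 ± 0.19 against Epyc (adjusted p at most 0.000817). Per kb, Cplx1 made 92.2% ± 0.874 of the complexin sum in ChAT, 70.6% ± 2.29 in Chrna5, 65.9% ± 7.06 in Amigo1 and 79.6% ± 0.829 in Epyc. Cplx3, a complexin of retinal ribbon synapses, was at most 1.29 CPM in any IP without nicotine.

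Rab3 GTPases sit on the vesicle and bind RIM. Rab3b (chr4:108879063-108943324, plus strand) ranged from 24.9 to 40.5 CPM (median 29.6) in the ChAT IPs and was at 269.5, 316 and 300.0 CPM in the Chrna5 IPs, 323, 374 and 281 CPM in the Amigo1 IPs and 271, 259, 315, 279 and 326 CPM in the Epyc IPs. The groups were far apart, and the log2 difference was -3.46 ± 0.25 against Chrna5, -3.33 ± 0.30 against Amigo1 and -3.17 ± 0.29 against Epyc (adjusted p at most 5.8e-11). Rab3c (chr13:110054187-110280996, minus strand) ranged from 278 to 1365 CPM (median 519) in ChAT, with baseline 1 inside the IPN range and the other 8 below it, and was at 1184, 1265 and 1235 CPM in the Chrna5 IPs, 1281, 1567 and 1337 CPM in the Amigo1 IPs and 1027, 1146, 1292, 1464 and 1136 CPM in the Epyc IPs. For Rab3c the fit gave log2 differences of -1.12 ± 0.32 against Chrna5, -2.24 ± 0.38 against Amigo1 and -2.04 ± 0.36 against Epyc (adjusted p at most 0.0116), and without ChAT saccharin-injected 2 the call against Chrna5 was lost. Rab3a was the most abundant Rab3 per kb in all 4 lines, with 81.1% ± 9.67 of the Rab3 sum in ChAT, 62.7% ± 0.818 in Chrna5, 56.2% ± 2.83 in Amigo1 and 66.0% ± 6.29 in Epyc, and passed no test in CPM (-0.43 ± 0.26 against Chrna5, 0.33 ± 0.29 against Amigo1 and -0.11 ± 0.27 against Epyc). Of the active zone scaffolds, Bsn (bassoon) was higher against Chrna5 (0.95 ± 0.28) and Rims2 lower against Amigo1 (-0.78 ± 0.27). Rims1, Rims3 and Pclo (piccolo) passed no test. Pclo ranged from 139.8 to 996 CPM (median 287) in the ChAT IPs and 188 to 262 CPM in Chrna5, 181 to 385 CPM in Amigo1 and 108 to 232 CPM in Epyc IPs.

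The 2 CAPS genes, which prime dense core vesicles and assist synaptic vesicle priming, went in opposite directions. Cadps (chr14:12372563-12823079, minus strand) ranged from 48.4 to 366 CPM (median 96.9) in ChAT and was at 1093, 843 and 893 CPM in the Chrna5 IPs, 594, 663 and 478 CPM in the Amigo1 IPs and 919, 861, 1125, 1128 and 950.0 CPM in the Epyc IPs. All ChAT IPs lay below all IPN IPs, with log2 differences of -3.02 ± 0.52 against Chrna5, -3.52 ± 0.63 against Amigo1 and -4.31 ± 0.64 against Epyc (adjusted p at most 6.66e-05). Cadps2 (chr6:23262773-23839421, minus strand) ranged from 1113 to 1325 CPM (median 1249.5) in ChAT and was at 554, 438 and 318 CPM in the Chrna5 IPs, 749, 869.6 and 622 CPM in the Amigo1 IPs and 144, 141, 157, 154 and 128 CPM in the Epyc IPs. All ChAT IPs lay above all IPN IPs, by 1.504 ± 0.20 against Chrna5, 0.75 ± 0.22 against Amigo1 and 3.12 ± 0.19 against Epyc (adjusted p at most 0.0142). Cadps2 made 90.3% ± 7.29 of the CAPS sum per kb in ChAT, 29.0% ± 4.22 in Chrna5, 53.6% ± 0.497 in Amigo1 and 11.6% ± 0.926 in Epyc. Of the Munc13 genes, Unc13c was lower against Chrna5 (-1.40 ± 0.23) and Amigo1 (-2.73 ± 0.28), and not called against Epyc (-0.32 ± 0.23). Unc13a, the isoform of most central synapses, and Unc13b passed no test. Unc13a led the family per kb in ChAT (55.1% ± 5.68), and Unc13c led in Chrna5 (72.6% ± 2.10) and Amigo1 (84.0% ± 2.48). In Epyc, Unc13c with 11.1 ± 2.29 CPM per kb and Unc13a with 9.88 ± 2.77 CPM per kb overlapped.

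**Figure D3:**
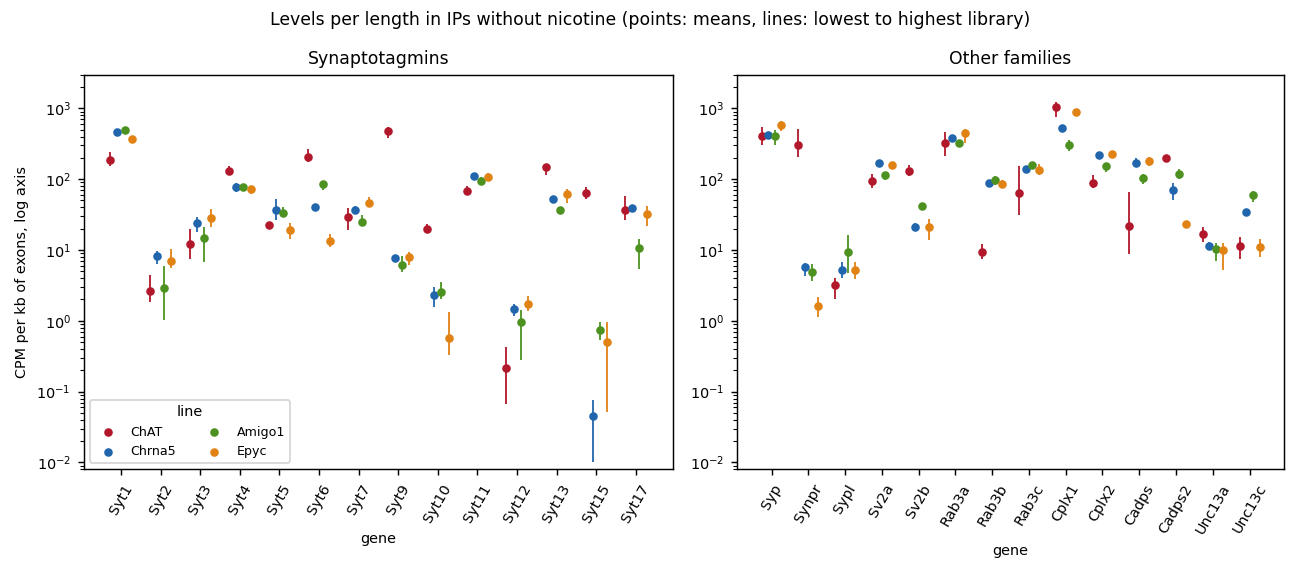
CPM per kb of GENCODE M21 exons (y axis, log scale) of the 14 synaptotagmins (left) and of 14 members of other families (right), in the IPs without nicotine of ChAT (n = 9), Chrna5 (n = 3), Amigo1 (n = 3) and Epyc (n = 5), with points at the mean and lines from the lowest to the highest library (a library at 0 is drawn at the bottom, 0.01). Syt9 is highest among synaptotagmins in ChAT and Syt1 in the 3 IPN lines, and Synpr, Sv2b and Cadps2 stand higher and Rab3b, Cplx2 and Cadps lower in ChAT.

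The IPN lines also differed from one another. Between Amigo1 and Epyc, 12 members were called, 5 higher in Amigo1 and 7 lower, where 4.81% of all genes were called in either direction. Without the Amigo1 nicotine IPs the counts were 11 and 12, where 15.1% of all genes were called. Higher by at least 1 on the log2 scale in Amigo1 were Syt6 (2.68 ± 0.22), Synpr (1.60 ± 0.36), Sv2c (1.92 ± 0.22), Unc13c (2.41 ± 0.20) and Cadps2 (2.37 ± 0.17). Lower by that much were Syt17 (-1.59 ± 0.46), Vamp1 (-1.27 ± 0.28) and Cplx1 (-1.56 ± 0.15). Unc13c was at 529, 607 and 418 CPM in the Amigo1 IPs and at 95.3, 126, 91.4, 104 and 70.5 CPM in the Epyc IPs, with no overlap and an adjusted p of 1.84e-11. Cplx1 was at 639.8, 547 and 781 CPM in Amigo1 and at 2102, 2020.2, 1881, 1769.9 and 1921 CPM in Epyc (adjusted p = 1.39e-09). Syt17, a C2-domain protein of the secretory pathway, was at 45.5, 51.7 and 19.4 CPM in Amigo1 and at 155, 132, 113, 107 and 79.5 CPM in Epyc. Its call (adjusted p = 0.0347) was lost on leaving out either of 2 Amigo1 IPs (baseline 1 or saline-pump 1) or 1 of 3 Epyc IPs (baseline 1, 2 or 3). Vamp1 was at 88.7, 102 and 188 CPM in Amigo1 and at 346, 369, 301, 269 and 240.2 CPM in Epyc, and its call was lost without Amigo1 baseline 1.

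Chrna5 was compared with Amigo1 and Epyc across gene lists, and few genes passed. Between Chrna5 and Epyc, 2 members were higher in Chrna5, Syt6 (1.83 ± 0.34, adjusted p = 0.00888) and Cadps2 (1.62 ± 0.28, adjusted p = 0.00439), where 0.0786% of all genes were called. Both calls were lost without ChAT saccharin-injected 1, which enters through the gene list term. Between Chrna5 and Amigo1 no member passed in edgeR, where 0.0302% of all genes did. At an unadjusted p below 0.05 there were 12 members, beside 1345 of the 16532 genes. DESeq2 called 2 members and 1.08% of all genes. Per kb of exon, the 3 IPN lines followed the order Amigo1, Chrna5, Epyc for Unc13c (58.9 ± 10.8, 34.2 ± 3.07 and 11.1 ± 2.29 CPM per kb) and for Cadps2 (119.9 ± 19.9, 70.0 ± 18.9 and 23.2 ± 1.86 CPM per kb), as levels that carry no term for the gene list.

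Against whole dissected tissue, 13 members were higher in the ChAT IPs than in habenula input and 12 were lower (6.77% and 11% of all genes). In Chrna5 14 were higher and 3 lower (3.54% and 9.17%), in Amigo1 7 were higher and none lower (1.17% and 0.665%), and in Epyc 6 were higher and none lower (0.714% and 1.08%). Beside the 0 lower calls in Amigo1 and Epyc, 12 and 15 members in either direction had an unadjusted p below 0.05 in edgeR. So had 2096 and 2109 of the 16532 genes. DESeq2 called 7 higher and 0 lower in Amigo1 (4.28% of all genes in either direction) and 7 and 0 in Epyc (4.14%). Without the Amigo1 nicotine IPs the edgeR counts were 17 higher and 14 lower in ChAT and 21 and 4 in Chrna5. They were then 8 and 2 in Amigo1 and 12 and 2 in Epyc. Of all genes 34.8%, 28.6%, 9.28% and 9.35% were called in that fit. Every Amigo1 and Epyc IP is on another gene list than its inputs, and the fit takes the shift between lists from the ChAT IPs. Among pools with both fractions, with the pool as a block, the counts were 16 higher and 18 lower in ChAT, 23 and 6 in Chrna5, 15 and 9 in Amigo1 and 21 and 10 in Epyc. The fit with the block called 28.8%, 27.8%, 30.7% and 30.8% of all genes in either direction. Without Chrna5 IP baseline 4 the Chrna5 count fell to 10 in all. Astrocyte markers moved with fraction, their 8 genes summing to 1699 to 1967 CPM in habenula inputs and 145 to 1026 CPM in ChAT IPs, and to 2916 to 3349 and 478 to 652 CPM in Chrna5 inputs and IPs. They summed to 2777 to 2929 and 471 to 720.3 CPM in Amigo1, and to 2178 to 3469.6 and 535 to 865 CPM in Epyc inputs and IPs. Their part in these differences was not tested.

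All 8 members that were higher in ChAT than in each IPN line were also higher in the ChAT IPs than in habenula input, among them Synpr (4.45 ± 0.40), Syt15 (4.00 ± 0.62), Cadps2 (2.97 ± 0.19), Syt6 (2.95 ± 0.24) and Syt9 (2.81 ± 0.27). With the gene list term, ChAT IP against input rests on the 3 saccharin-treated ChAT IPs behind the difference from Chrna5. The differences from Amigo1 and Epyc rest on 2 other ChAT IPs. Of the 11 lower members, Syt12, Doc2b, Syn2, Rab3b, Rab3c and Cadps were lower in ChAT IPs than in their input, with log2 differences of -2.49 ± 0.32 for Rab3c and -2.04 ± 0.48 for Cadps. Sv2c and Cplx2 were higher than in their input (2.21 ± 0.23 and 1.37 ± 0.16), while lower than in each IPN line. Syt1, Snap25 and Rab3b were higher in IP than input in Chrna5 (0.88 ± 0.17, 0.96 ± 0.16 and 1.41 ± 0.21) and in Amigo1 (1.21 ± 0.26, 1.23 ± 0.25 and 1.56 ± 0.34). In Epyc, Snap25 (1.17 ± 0.24) and Rab3b (1.54 ± 0.33) were higher and Syt1 did not pass (0.78 ± 0.25, adjusted p = 0.11).

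The inputs, all on 1 gene list, give the regions without the pull-down. Between habenula and IPN inputs 15 members were higher in habenula and 8 lower, where 6.28% and 4.54% of all genes were. Without the Amigo1 nicotine IPs the counts were 18 and 12, with 22.6% of all genes called in either direction. Syt9 was at 243 to 277 CPM in the 4 habenula inputs and 35.0 to 55.5 CPM (median 39.2) in the 12 IPN inputs (log2 difference 2.61 ± 0.18). Synpr was at 50.5 to 66.3 CPM in the 4 habenula inputs and 8.77 to 17.4 CPM (median 12.4) in the 12 IPN inputs (2.27 ± 0.26). Of the 8 members higher in ChAT IPs, 6 were higher in habenula input, Syt4 was not called (0.13 ± 0.13), and Cadps2 was lower (-0.64 ± 0.15), at 142 to 179 CPM in the 4 habenula inputs and 205 to 303 CPM (median 238) in the 12 IPN inputs. Of the 11 lower members, Rab3b (-0.82 ± 0.17), Sv2c (-3.30 ± 0.22) and Cplx2 (-1.85 ± 0.13) were lower in habenula input too. Rab3c (0.93 ± 0.21) and Syn2 (1.51 ± 0.32) were higher there, at 2804 to 3457 CPM in the 4 habenula inputs and 1435 to 2018 CPM (median 1656) in the 12 IPN inputs for Rab3c and 420.4 to 689 CPM in the 4 habenula inputs and 171 to 257 CPM (median 181) in the 12 IPN inputs for Syn2. The other 6 passed no test between inputs. Markers of other cells moved with region. Dopamine and serotonin markers had 7 of 7 lower in habenula (median log2 difference -7.14), and summed to 23.5 to 30.9 CPM in habenula inputs, 1743 to 1851 CPM in Chrna5, 1729 to 2152 CPM in Amigo1 and 1579.9 to 1980.0 CPM in Epyc inputs. Thalamic and hippocampal markers had 6 of 8 higher in habenula (median log2 difference 3.23), and summed to 1251 to 1485, 272 to 350.4, 298 to 331 and 308 to 393 CPM in the same order. Oligodendrocyte markers had 3 of 8 lower in habenula (median log2 difference -1.25). The part of these markers in the differences was not tested.

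The 12 ChAT IPs differed among themselves. Baseline 1 and nicotine-water 1 had the highest glial markers, with 1026 to 1084 CPM over 8 astrocyte genes against 127 to 431 CPM in the other 10, and 743 to 881 against 104 to 394 CPM over 8 oligodendrocyte genes. None of these 16 genes was at 0 in a ChAT IP. A list of 8 thalamic and hippocampal markers summed to 647 to 708 against 329 to 626 CPM. Within that list Prkcd was at 194 and 183 CPM in these libraries and at 15.7 to 100.1 CPM in the others, and Calb2 was at 151 and 137 CPM, with a median of 181 CPM in the others. Both libraries lay above the other 10 for 12 of the 48 members and below them for 6. The same count was not made over all genes, so these numbers describe the 2 libraries and are no result about the members. Cadps was at 366 and 359 CPM in these 2 libraries and at 48.4 to 165 CPM (median 76.6) in the other 10. Pclo was at 996 and 992 CPM in these 2 libraries and at 139.8 to 425 CPM (median 251) in the other 10. For Rab3c they held 1365 and 1322 CPM, against 278 to 618 CPM in the others. The members below the others included Syt9 (1461 and 1382 against 1606 to 2133 CPM), Syt13, Vamp2, Cplx1, Cplx2 and Cadps2. The part of the other cells' RNA in the members' levels was not tested. Neither library enters the fitted differences from the IPN lines, since the gene list and nicotine terms take them up.

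**Figure D4:**
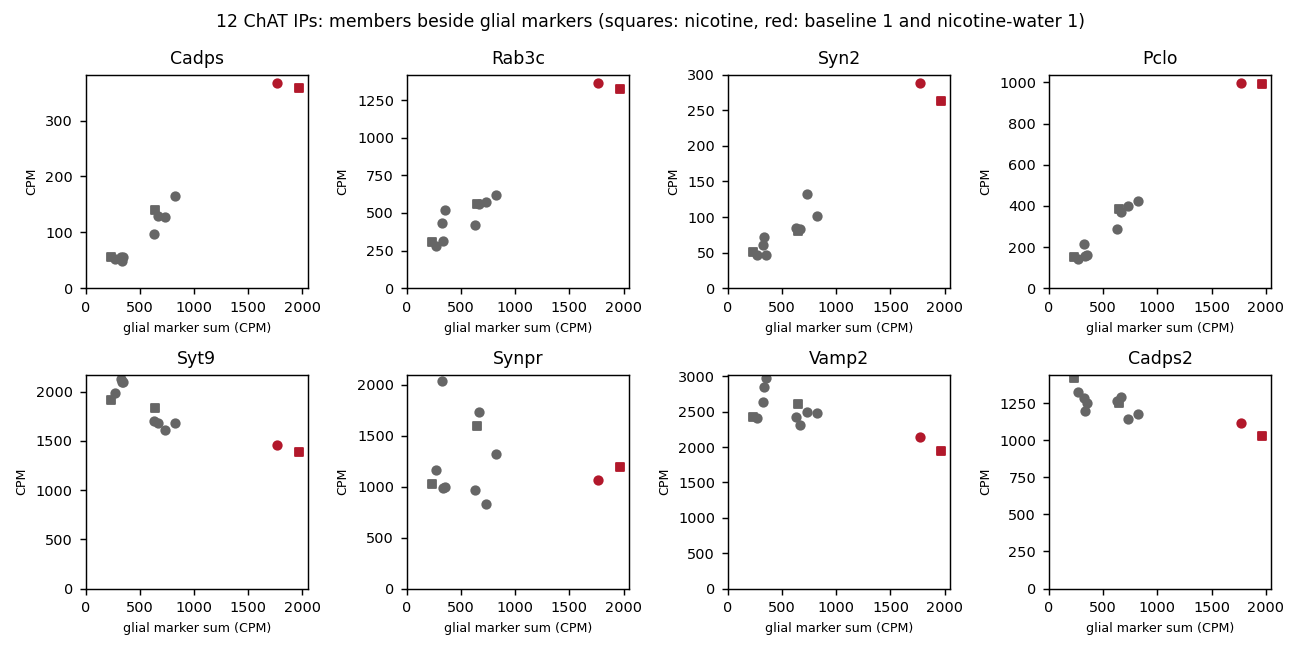
Each point is 1 of the 12 ChAT IPs, with the summed CPM of 16 astrocyte and oligodendrocyte markers on the x axis and the CPM of 1 member on the y axis; squares are nicotine IPs, and red marks baseline 1 and nicotine-water 1. These 2 libraries lie apart on the right, high for Cadps, Rab3c, Syn2 and Pclo and low for Syt9, Vamp2 and Cadps2.

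Besides Sv2c, 3 members shifted with the gene list within the ChAT IPs between the first list and the others. Syn3 and Doc2a were called on both other lists, and Rims3 on the third (log2 shift -3.60) but not the second (-2.98, adjusted p = 0.238). Syn3 (chr10:86055125-86498896, minus strand), which holds Timp3 on its other strand, was at 28.1 to 40.9 CPM on the first list, 143 to 239.7 CPM on the second and 152 to 223 CPM on the third. Doc2a (chr7:126847416-126852705, plus strand), which overlaps Ino80e on the other strand, was at 0.0471 to 0.434 CPM, 5.77 to 7.91 CPM and 4.46 to 10.8 CPM. Rims3 (chr4:120854816-120896579, plus strand), with no overlapping coding gene in GENCODE M21, was at 94.6 to 148 CPM, 6.75 to 20.04 CPM and 8.94 to 9.94 CPM. For Syn3, Doc2a and Rims3 the lists did not overlap between the first and the other two, so their levels cannot be set side by side across lists, and none was called between ChAT and an IPN line. Treatment and pool also differ between the lists.

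**Figure D5:**
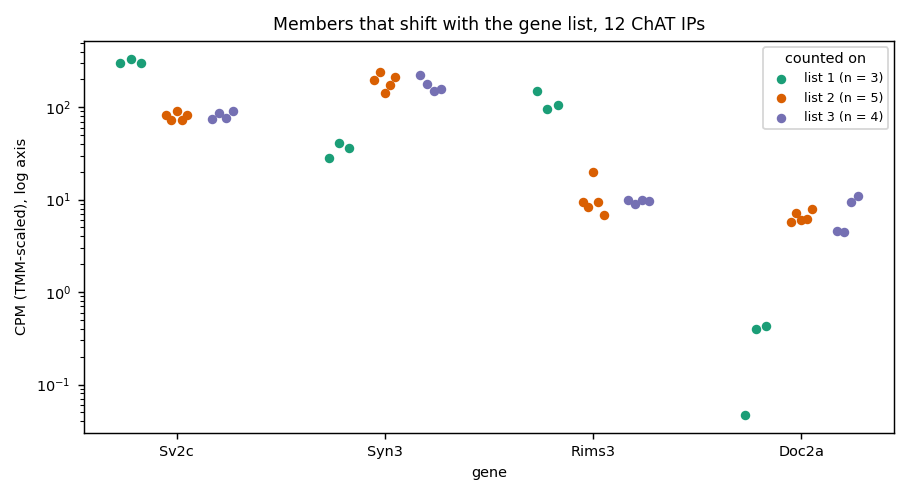
CPM on a log axis (y axis) of 4 members (x axis) in the 12 ChAT IPs, coloured by the gene list the library was counted on, a point per library. On list 1, Sv2c and Rims3 are higher and Syn3 and Doc2a lower than on lists 2 and 3.

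Of 117 other genes of the release and recycling machinery, 113 were tested. Against Chrna5 12 were higher in ChAT and 14 lower, where 6.97% and 8.81% of all genes were. Against Amigo1 there were 13 and 9 (5.63% and 8.72% of all genes), and against Epyc 14 and 13 (7.03% and 8.15%). The 9 lower against Amigo1 are near the share of all genes. Of these genes, 14 were called the same way against all 3 lines, 9 higher and 5 lower (3.35% and 4.79% of all genes), and the lower share is again near that of all genes. The largest were further C2-domain and calcium-binding proteins. Necab2, a neuronal calcium-binding protein known in MHb, was at 1043 to 1965 CPM in ChAT and at 37.8 to 49.1 CPM in Chrna5, 55.5 to 69.8 CPM in Amigo1 and 41.3 to 53.9 CPM in Epyc, a log2 difference of 4.91 against Chrna5, 4.88 against Amigo1 and 5.34 against Epyc. The synaptotagmin-like genes Sytl1 and Sytl3, Rab27 effectors in secretory cells, were low in ChAT (4.31 to 17.4 CPM and 0.565 to 1.82 CPM). Sytl3 had 0 counts in all 11 IPN IPs, and Sytl1 was at most 0.358 CPM in any of them. Sytl5 was lower in ChAT (0 to 3.59 CPM) than in Amigo1 (28.9 to 79.5 CPM), Chrna5 (12.9 to 23.0 CPM) and Epyc (14.1 to 27.4 CPM), and so was Mctp1, a multiple C2-domain protein, with log2 differences of -4.04 against Chrna5, -4.93 against Amigo1 and -3.41 against Epyc.

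Nicotine was tested within each line. In the ChAT IPs (3 nicotine pools against 2 controls on their list) edgeR called 0 of the 48 members and 0% of all genes. At an unadjusted p below 0.05 there were 8 members, beside 736 of the 16532 genes, and DESeq2 called 0 members and 0.212% of all genes. The nicotine pools include nicotine-water 1, a library with high glial markers. In this comparison 6 of 8 astrocyte markers had an unadjusted p below 0.05 in edgeR (median log2 difference 2.08). So had 4 of 8 oligodendrocyte markers (median 1.47) and 0 of 8 microglia markers (median 0.39). Their part in the members' values was not tested. Between uninjected nicotine and saccharin pools (2 against 2), where nicotine and gene list coincide, 7 members were called, among them the list-dependent Doc2a, Sv2c, Syn3 and Rims3. In the Epyc IPs 0 members and 0.0181% of all genes were called. At an unadjusted p below 0.05 there were 4 members, beside 1204 of the 16532 genes, so the members' share is near that of all genes. DESeq2 called 2 members and 1.42% of all genes. Without the Amigo1 nicotine IPs, Syt6 (0.81) and Syt15 (-4.91) passed in Epyc, where 0.641% of all genes did.

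In the Amigo1 IPs 22 members were called with nicotine, 15 higher and 7 lower. Of all genes 44.3% were called, 16.7% higher and 27.6% lower, so the members' total is near the share of all genes. The nicotine mice also drank saccharin, which their controls did not. When only these 6 libraries were fitted, no member and none of 12276 genes passed, with 1794 genes at an unadjusted p below 0.05. The 3 nicotine libraries had 3 to 6 members at 0 counts, against 0 to 2 in the other 41. Syt2 was at 0, 0 and 0 CPM with nicotine and 7.36, 11.6 and 43.7 CPM without. Stx1a was at 0.507, 0.550 and 1.07 CPM with nicotine and 11.4, 14.8 and 15.0 CPM without. Both were detected in all controls and at or near 0 in all 3 nicotine libraries. Vamp2 was at 7352, 4099 and 5971 CPM with nicotine and 2044, 2347 and 1942 CPM without, and Syn1 at 3149, 2135 and 1687 CPM with nicotine and 604, 718 and 677 CPM without. The higher members were Syt3, Syt13, Syngr1, Syn1, Syn3, Snap25, Vamp2, Cplx1, Cplx2, Rab3b, Rab3c, Rims2, Pclo, Unc13b and Unc13c, from 0.66 (Rims2) to 2.27 (Unc13b) on the log2 scale, and the lower ones were Syt2, Syt12, Syt15, Doc2a, Stx1a, Cplx3 and Unc13a, with -4.26 for Stx1a and -0.76 for Unc13a. IPN GABAergic markers summed to 18383 to 38331 CPM in the nicotine IPs and 7213 to 8061 CPM in their controls, and pan-neuronal markers to 8762 to 15599.9 and 6194 to 7605 CPM. Astrocyte markers summed to 870.4 to 2599.9 and 471 to 720.3 CPM, and oligodendrocyte markers, which overlapped, to 516 to 2743 and 543 to 1628 CPM. The part of these markers, and of the lower number of genes detected, in the nicotine differences was not tested.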

How the data were processed

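The 44 deposited files hold whole-number counts per gene symbol, which the authors made with STAR 2.3.0e and HTSeq on mm10, per the submitters' processing notes; the sources used here give no strand or multi-mapping setting. The authors' notes also name DESeq2. Rows that name no gene were left out of library sizes. Shares here are of all counts, those in genes and those in rows that name no gene together. Reads with no feature were 8.46 to 27.3%, ambiguous reads 0.536 to 5.56% and reads not uniquely aligned 20.3 to 57.0%. The files use 3 gene lists of 37328, 32532 and 24454 symbols, and the 22682 shared symbols held 71.6 to 98.3% of the counts in genes.

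Counts were scaled by TMM and tested with edgeR 4.0.16 (R 4.3.3, quasi-likelihood F test, minimum count of 10 in filterByExpr, Benjamini-Hochberg adjustment) in 1 fit of 11 groups with a gene list term and 31 residual degrees of freedom, which gave 14 comparisons. DESeq2 1.42.0 was an alternative. The other alternatives were another scaling, no filter, no gene list term, only the groups compared, libraries on 1 list, each library left out, and a block on the pool. The fit was tested on simulated data. Gene lengths and positions are from GENCODE M21 (GRCm38), and promoter sequences from RefSeq (GRCm38.p6).

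IP and input RNA came from the same homogenate per the labels' protocols, and pools were paired by matching pool numbers and sizes. Deviations of paired libraries from their group means correlated at 0.0187 to 0.241. No replicate pair agreed within sampling noise. The member list, the other lists and the tests were chosen with earlier results of these data known. Named in full were members called the same way by at least 1 on the log2 scale against all 3 IPN lines or called by that much between IPN lines, the 3 most abundant members with no call between ChAT and an IPN line, and members called with nicotine.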

Additional observations from a re-analysis of the deposited data

Results flagged for a closer look

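Of 132 groups of 4 to 9 libraries examined over 22 members, 15 had 1 library far from the others. Chance gives about 1 in 20 for independent groups. These groups are the same sets of libraries for each member, so the 2 shares cannot be compared. In ChAT IP baseline 1, the library with high glial markers, Doc2b (17.6 CPM), Syn2 (288 CPM), Rab3c (1365 CPM), Cadps (366 CPM) and Synj1 (1568 CPM) lay above the other 8 ChAT IPs without nicotine. Syt17 was high in ChAT IP saccharin-injected 2 (213 CPM, the others 97.6 to 149 CPM). ChAT input saccharin-injected 2 was low for Syt6 (113 CPM), Synpr (50.5 CPM) and Synj1 (661 CPM).

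Among the IPN inputs, Amigo1 baseline 1 was low for Syt13 (174 CPM) and Amigo1 saline-pump 1 for Cadps (436 CPM). Epyc input baseline 4 was low for Syt15 (1.15 CPM) and high for Rab3b (104 CPM). Epyc input saline-pump 2 was high for Syn2 (257 CPM) and Epyc input baseline 1 for Cplx1 (1005 CPM).

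For 4 members the fitted IP against input values had opposite signs in ChAT, where all 4 passed the test, and in Chrna5, where only Syt15 passed. The log2 difference was 2.81 in ChAT and -0.62 in Chrna5 for Syt9, and 4.00 and -3.81 for Syt15. It was -2.49 and 0.82 for Doc2b, and -2.80 and 0.73 for Syn2. The difference between the lines was not tested for these 4 genes.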

How the results depend on the processing

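For the 49 differences between lines of the genes named in full, all 382 values under other settings kept their direction and side of the threshold. This does not cover the nicotine calls or the single-library omissions given with those genes. Counts of members called moved by over 1.5 times in the following fits. With no gene list term they were 8 for Chrna5 against Amigo1, 8 for Chrna5 against Epyc, 12 for Amigo1 IP against input and 23 for Epyc IP against input. Of all genes 4.23%, 3.59%, 16.4% and 22.7% were called there. With only the groups compared they were 11, 13, 23 and 33 for these 4, 20 for Amigo1 against Epyc, 30 for Chrna5 IP against input and 0 for nicotine in Amigo1. Of all genes 5.43%, 10.9%, 30.6%, 36.1%, 8.05%, 33.0% and 0% were called there, in this order. Without the Amigo1 nicotine IPs (chosen after seeing the data) they were 6 for Chrna5 against Amigo1, 4 for Chrna5 against Epyc, 23 for Amigo1 against Epyc, 14 for Epyc IP against input and 2 for nicotine in Epyc. Of all genes 1.95%, 0.363%, 15.1%, 9.35% and 0.641% were called there. DESeq2 called 2 for Chrna5 against Amigo1 (1.08% of all genes) and 2 for nicotine in Epyc (1.42% of all genes). The fit of uninjected ChAT IPs called 7 with nicotine.

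With the pool as a replicate block, 34 members were called in ChAT, 29 in Chrna5, 24 in Amigo1 and 31 in Epyc IP against input, and 27, 26, 21 and 30 in the same libraries without the block. The block fit called 28.8%, 27.8%, 30.7% and 30.8% of all genes.

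Leaving out 1 library of the groups compared gave 21 to 26 called members for ChAT against Chrna5, 14 to 24 against Amigo1 and 19 to 24 against Epyc. Between IPN lines the ranges were 0 to 0 for Chrna5 against Amigo1, 2 to 2 for Chrna5 against Epyc and 8 to 12 for Amigo1 against Epyc. These ranges, and those for Amigo1 and Epyc IP against input, do not cover leaving out the ChAT IPs that set the gene list term. Without ChAT saccharin-injected 1, both calls for Chrna5 against Epyc were lost. For IP against input they were 21 to 25 in ChAT, 10 to 17 in Chrna5, 7 to 8 in Amigo1 and 5 to 7 in Epyc, and 19 to 23 between inputs. With nicotine they were 0 to 2 in ChAT, 19 to 32 in Amigo1 and 0 to 1 in Epyc. Members higher against each IPN line numbered 6 to 8, and members lower against each numbered 5 to 11. Syt12, Syt15, Doc2a and Cplx3 rest on few reads in some libraries.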
